A study of Mus musculus with 12 samples.

Results

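The miRNAs described here were the mature strands of miR-208a, miR-208b and miR-499, which are embedded in introns of myosin heavy chain genes. They were taken from the table by name, whatever their values, and comprised 5 of its 1900 mature miRNAs: mmu-miR-208a-3p, mmu-miR-208b-3p, mmu-miR-208b-5p, mmu-miR-499-5p and mmu-miR-499-3p (the species prefix is left out below). Their levels were measured by small RNA sequencing of gastrocnemius, a large calf muscle, from male C57BL/6 mice aged 6 months (young) or 24 months (aged). Each age had 6 libraries, named below by age and by the replicate number of the labels, and no agent or altered allele was given for either group. Values are FPKM, which correct the reads for the length of the mature strand and for the depth of the library. As many mice of each age were dissected as there were libraries, so each library was taken as 1 animal.

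A miRNA silences messenger RNAs that pair with its seed, the bases near its 5′ end, and an intronic miRNA is cut from the transcript of its host gene. Myh6 encodes the alpha myosin heavy chain of cardiac muscle, Myh7 the beta chain of cardiac muscle and slow skeletal fibres, and Myh7b a related myosin whose coding transcript is largely non-productive in many muscles. miR-208a is known as a heart miRNA, whereas miR-208b and miR-499 are known for supporting the slow fibre programme in skeletal muscle by repressing transcriptional repressors of slow genes such as Sox6. The mouse gastrocnemius is mostly made of fast fibres, with slow fibres in its deep portion.

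The mature sequences are shown because they define which of the strands can share targets. They were taken from RefSeq (GRCm38.p6), run 5′ to 3′, and carry the seed (bases 2 to 8) in capitals.
miR-208a-3p: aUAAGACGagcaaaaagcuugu
miR-208b-3p: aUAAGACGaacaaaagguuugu
miR-499-5p: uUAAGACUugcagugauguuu
miR-208b-5p: aAGCUUUUugcucgcguuaugu
miR-499-3p: gAACAUCAcagcaagucugugcu
The seeds of miR-208a-3p and miR-208b-3p were the same, and these strands differed at 3 of 22 positions (G10A, A16G and C18U, written as the miR-208a-3p base, the position from 1 at the 5′ end and the miR-208b-3p base). miR-499-5p shared 6 of 7 seed bases with both, with G8U (written from miR-208b-3p to miR-499-5p) as the difference in the seed. Outside the seed it was less alike, with 10 of 21 positions the same as in miR-208b-3p over the whole strand. Among 1679 mature mouse miRNAs searched, no other miRNA had the seed of these 3 strands or shared bases 2 to 7 with miR-499-5p. miR-208b-5p shared its seed with miR-208a-5p and with miR-6415, and miR-499-3p shared its seed with none.

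All 3 hairpins lay within introns and on the strand of their host gene, with no exon of it overlapping them. Mir208a was at chr14:54949060-54949142 on the minus strand, in intron 29 of Myh6, and Mir208b was at chr14:54975700-54975776 on the same strand, in intron 31 of Myh7. Introns were counted in the longest coding transcript of GENCODE M21, which has the mm10 assembly. The pair lay 26557 bases apart. Mir499 was at chr2:155622880-155622958 on the plus strand, in intron 19 of Myh7b. The hairpins of the miRNAs that were read in this muscle are given from RefSeq (GRCm38.p6), with the strand that was read in capitals and the partner strand, which had no read, in lower case.
Mir208b: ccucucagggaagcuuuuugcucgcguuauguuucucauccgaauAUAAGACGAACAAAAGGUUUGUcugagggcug
Mir499: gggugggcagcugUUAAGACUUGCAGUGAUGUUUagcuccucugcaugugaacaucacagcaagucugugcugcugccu

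Depth differed widely between the libraries and bears on every value below. The estimated miRNA reads of a young library numbered 198733 to 6239342 and those of an aged library 123042 to 7515016, so that 1 read of a miRNA of 22 nucleotides stood for 5.86 FPKM in the deepest library and 377 FPKM in the shallowest. Across miRNAs, libraries of one age correlated with r of 0.946 to 0.979 in young and 0.943 to 0.989 in aged muscle. Muscle miRNAs were abundant, since miR-133a-3p ranked 3 and miR-1a-3p ranked 20 of the 877 miRNAs with a value above 0.

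Of the 5 strands, only miR-208b-3p and miR-499-5p were read in this muscle, and both were rare and uneven between libraries. Summed by age, miR-208b-3p had 20 reads in young and 147 in aged muscle, and miR-499-5p had 14 and 37. miR-208a-3p, miR-208b-5p and miR-499-3p had 0 reads in all 12 libraries, of 21132163 miRNA reads in all. A count of 0 allows up to 3 reads, of 8139005 in young and of 12993158 in aged muscle for each strand. This limit and the intervals given below cover counting error only. The other strand of the heart hairpin, miR-208a-5p, had 1 read, in aged 3, the deepest library. In whole tissue, fewer slow fibres and less RNA per fibre cannot be told apart.

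The strands that were read took a very small share of the miRNA pool. Averaged over the 12 libraries, miR-208b-3p ranked 221 of 877 at 418 FPKM, between miR-335-5p at 419 FPKM and let-7f-2-3p at 414 FPKM, with a rank of 263 by the young and 195 by the aged mean. miR-499-5p ranked 297 at 123 FPKM, between miR-1968-5p at 123 FPKM and miR-7236-3p at 122 FPKM, with a rank of 333 in young and 273 in aged muscle. The neighbours in this order differed by far less than the spread between libraries. The mean level of miR-133a-3p, which is present in fast and slow fibres alike, was 12066 times that of miR-208b-3p and 40969 times that of miR-499-5p.

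miR-208b-3p, the Myh7 product, was the more abundant of the pair. In young 1 to 6 its level was 0, 976, 0, 0, 311 and 48.8 FPKM, from 0, 10, 0, 0, 3 and 7 reads. In aged 1 to 6 it was 653, 1898, 234, 0, 0 and 891 FPKM, from 24, 57, 40, 0, 0 and 26 reads. The groups overlapped up to 976 FPKM, in young 2, the only young library to reach the levels of aged 1 and 6. No young library reached the level of aged 2, and 2 aged libraries had no read at all. The 95% Poisson interval was 468 to 1796 FPKM in young 2 and 1433 to 2451 FPKM in aged 2, the highest library. A count of 0 allowed up to 224, 457 and 641 FPKM in young 1, 3 and 4. Levels like those of young 5 or aged 3 could thus have gone undetected in young 3 and young 4. The limit was 1132 FPKM in aged 5, the shallowest library, and 111 FPKM in aged 4. Aged 4 therefore lay below the intervals of aged 1, 2 and 6, which had a similar number of miRNA reads (1264789 in aged 4 against 1244484 to 1465970), and the difference between these aged libraries was larger than counting error. The same held between young libraries, since young 6, the deepest of them, had an interval of 19.6 to 100.4 FPKM, well below that of young 2.

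miR-499-5p, the Myh7b product, was lower and more even where it was read. In young 1 to 6 its level was 0, 205, 0, 0, 218 and 73.0 FPKM, from 0, 2, 0, 0, 2 and 10 reads. In aged 1 to 6 it was 315, 313, 55.3, 116, 0 and 179.8 FPKM, from 11, 9, 9, 3, 0 and 5 reads. The groups overlapped here too, with the deepest library of each age at the lowest level above 0. In young 2 and young 5, 1 read already stood for 102 and 109 FPKM, so a level like that of young 6 would give less than 1 read on average there. The intervals of young 2 (24.8 to 739 FPKM) and young 5 (26.4 to 787 FPKM) held the level of young 6. The intervals of young 6 (35.0 to 134 FPKM) and aged 3 (25.2 to 105 FPKM) overlapped, and both lay below that of aged 1 (157 to 563 FPKM) and that of aged 2 (143 to 594 FPKM). A count of 0 allowed up to 234, 478 and 672 FPKM in young 1, 3 and 4 and up to 1186 FPKM in aged 5, above every level measured in the other libraries except in young 1. In aged 4, miR-499-5p had 3 reads where miR-208b-3p had none.

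**Figure D1:**
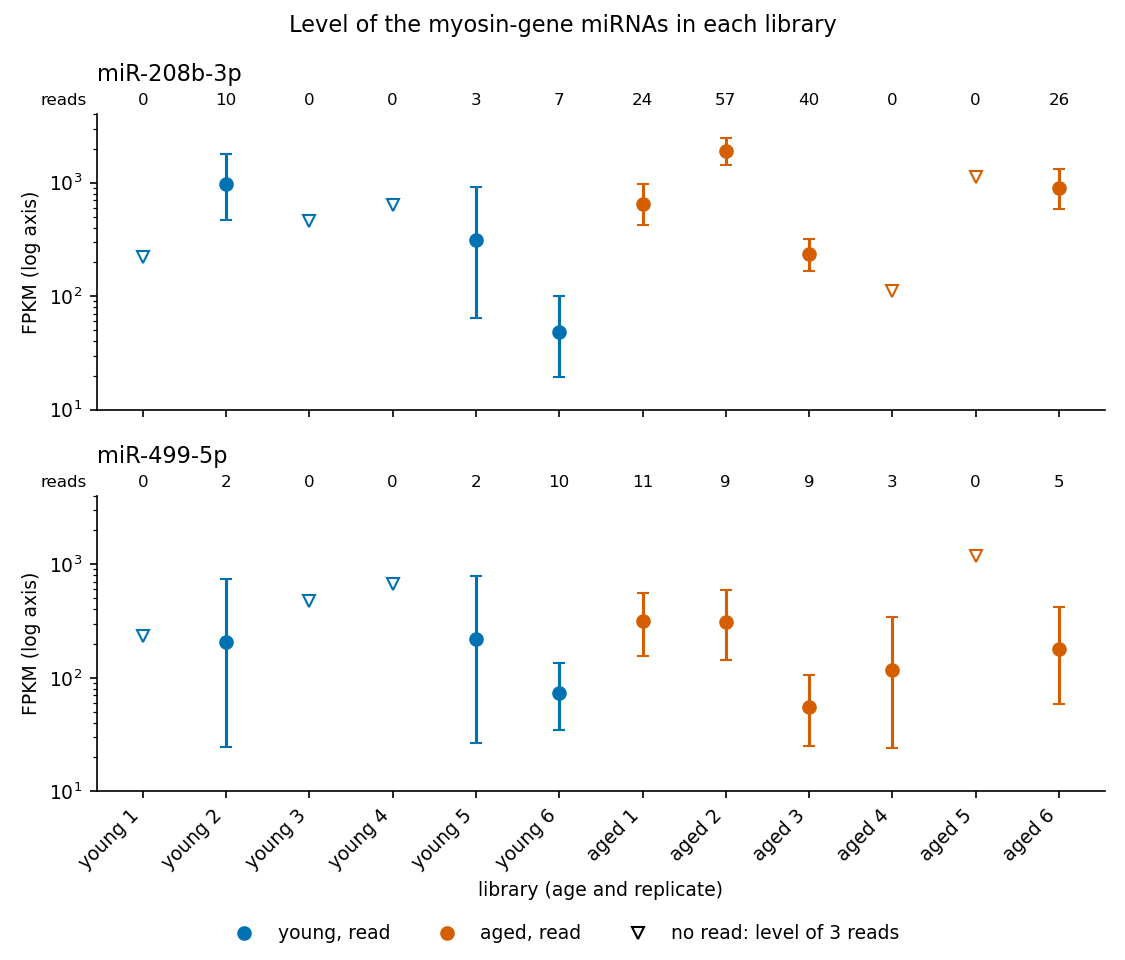
Levels of miR-208b-3p and miR-499-5p (FPKM, log axis) in each of the 6 young and 6 aged libraries, with the estimated reads printed above each. Filled points are levels with their 95% Poisson interval and open triangles mark the level of 3 reads in libraries without a read; the 5 libraries without miR-208b-3p include aged 4, whose triangle at 111 FPKM lies below the intervals of aged 1, 2, 3 and 6.

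The first question was whether the strands changed with age. Levels were tested as log2(FPKM + 48.2), a scale that understates the change of rare miRNAs, with limma over the 482 miRNAs above 0 in at least 5 libraries. Of the 5 strands, 2 passed that filter and 0 of these were called at an adjusted p of 0.05, where 2.9% of all tested miRNAs were called. Without adjustment the count was also 0 of 2, against 12.9% of all tested miRNAs, and limma voom on the recovered reads called neither strand. miR-208b-3p averaged 6.98 ± 1.86 in young and 8.26 ± 2.25 in aged muscle on the log2 scale (SD, n = 6 each), a difference of 1.29 with an SE of 0.89 (limma, adjusted p = 0.552). The 95% interval of that difference, -0.55 to 3.12 log2 units, held everything from a moderate fall to a large rise. The median level was 24.4 FPKM in young and 443 FPKM in aged muscle. The young median lay midway between 0 and the 48.8 FPKM of young 6, and was the level of no library. In young 1 to 5, 1 read stood for 74.5 to 214 FPKM, so a level as low as that young median would give less than 1 read on average there. The difference of 1.29 dropped to 0.75 log2 units without aged 2 and grew to 1.89 without young 2.

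miR-499-5p averaged 6.62 ± 1.20 in young and 7.41 ± 1.13 in aged muscle (log2, SD, n = 6 each). The difference was 0.79 with an SE of 0.60 and a 95% interval of -0.45 to 2.03 log2 units (limma, adjusted p = 0.613). Exact permutation of the age labels gave an unadjusted p of 0.251 for miR-499-5p and 0.351 for miR-208b-3p. The number of libraries with a read differed no more clearly, at 3 of 6 young and 5 of 6 aged for miR-499-5p (two-sided Fisher's exact p = 0.545) and 3 of 6 and 4 of 6 for miR-208b-3p (exact p = 1.0). Among the young libraries without a read, 2 were among the 3 shallowest of all 12, as was aged 5. Without those 3, miR-499-5p was read in 3 of 4 young and 5 of 5 aged libraries (exact p = 0.444) and miR-208b-3p in 3 of 4 and 4 of 5 (exact p = 1.0), a comparison chosen after seeing the data. The aged libraries were on the whole the deeper ones, and the part of depth in these differences was not tested beyond a fit with depth as a covariate, where they were 0.99 for miR-208b-3p and 0.57 for miR-499-5p on the log2 scale.

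**Figure D2:**
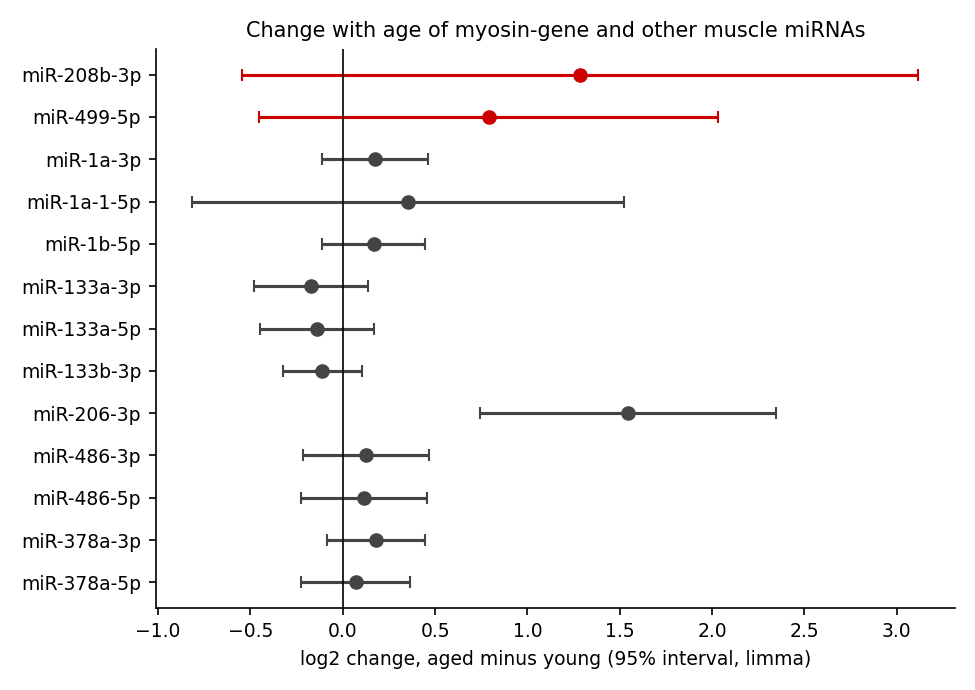
Change with age (log2 units, aged minus young, with the 95% interval from limma) of the 2 tested myosin-gene strands in red and of 11 other muscle miRNAs in grey, 6 libraries per age. The intervals of miR-208b-3p and miR-499-5p span 0 and are wider than those of the other muscle miRNAs plotted, and that of miR-206-3p lies above 0.

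What set miR-208b-3p apart was its spread between libraries of one age. Its within-age SD was 2.07 log2 units, which ranked 1 of the 482 tested miRNAs, against a median of 0.649. That of miR-499-5p was 1.16 log2 units and ranked 29. The abundant muscle miRNAs varied far less, with 0.200 log2 units for miR-133a-3p and 0.279 for miR-1a-3p. Zeros and counting error enter the SD of a rare miRNA, and these ranks are a description without a test. The interval of aged 4 for miR-208b-3p, given above, lay apart from those of the aged libraries of like depth.

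**Figure D3:**
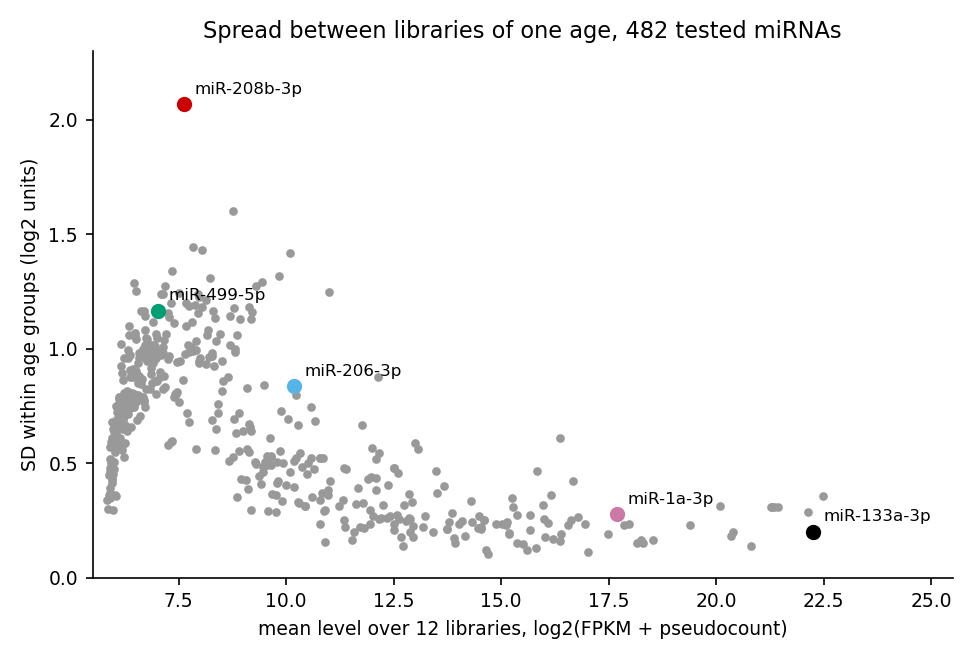
SD between libraries within an age (log2 units) against the mean level over 12 libraries (log2(FPKM + 48.2)) for the 482 tested miRNAs, one grey point each, with 5 muscle miRNAs coloured and named. miR-208b-3p has the highest SD, 2.07, and miR-499-5p, at 1.16, lies among other miRNAs of its level.

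The products of Myh7 and Myh7b were next compared within each library. In the 7 libraries with a read of both, where the scaling of the library cancels, miR-208b-3p was 4.76, 1.42 and 0.669 times miR-499-5p in young 2, 5 and 6. The ratio was 2.07, 6.06, 4.23 and 4.96 in aged 1, 2, 3 and 6. The ages overlapped, with young 2 above aged 1 and aged 3, and the mean log2 ratio was 0.73 in these 3 young and 2.01 in these 4 aged libraries (exact permutation p = 0.2, the smallest possible being 0.0286). This choice of libraries was made after seeing the data. Over all 12 libraries, with 48.2 added to both levels, the log2 ratio was 0.35 ± 0.85 in young and 0.85 ± 1.54 in aged muscle (SD, n = 6 each, exact permutation p = 0.509). That difference of 0.50 was not stable, since it became -0.17 with 1 FPKM added, 0.18 without aged 2 and 1.02 without aged 4. Set against miR-133a-3p, the difference between the ages was 1.46 for miR-208b-3p (exact permutation p = 0.245) and 0.96 for miR-499-5p (exact permutation p = 0.167) on the log2 scale. The first ran from 0.91 without aged 2 to 2.08 without young 2, and from 0.70 to 2.52 with a pseudocount of 10 times the size or of 1 FPKM.

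The strands that share bases 2 to 7 were also added up, as the pool that can pair with one set of sites. The sum of miR-208a-3p, miR-208b-3p and miR-499-5p was 7.27 ± 2.05 in young and 8.77 ± 2.06 in aged muscle (log2, SD, n = 6 each), a difference of 1.498 (exact permutation p = 0.242). That difference ran from 0.59 to 3.33 with the larger and the smaller pseudocount, and from 1.02 without aged 2 to 2.13 without aged 5. It consisted of miR-208b-3p and miR-499-5p alone, since miR-208a-3p had no read. No ratio of miR-499-5p to miR-499-3p was computed, because the 51 reads of the hairpin all came from the 5p strand.

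miR-208b-3p and miR-499-5p tended to be read in the same libraries. Both were read in 7 libraries and neither in 4, which were young 1, 3 and 4 and aged 5, while aged 4 had miR-499-5p alone. Among the 7 libraries with both, the levels had a Pearson r of 0.766 (exact permutation p = 0.0722) and a Spearman rho of 0.571 (exact permutation p = 0.2). Over all 12 libraries r was 0.865 (permutation p = 0.00078, adjusted p = 0.0039 over 5 relations) and rho was 0.841 (permutation p = 0.00152, adjusted p = 0.0076). The 4 libraries at 0 for both lie at a single point, which 3 of the 6 young libraries share. Without these 4, a choice made after seeing the data, r was 0.707 over 8 libraries (exact permutation p = 0.0643) and rho was 0.643 (exact permutation p = 0.0962). They are also tied as the farthest from the median of miR-499-5p, and leaving out 2 of them, young 1 and young 3, gave an r of 0.827 (permutation p = 0.00532). Within the ages it was 0.937 in young (n = 6, exact permutation p = 0.0333) and 0.782 in aged muscle (n = 6, exact permutation p = 0.0944).

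The libraries without a read were mostly shallow, so the levels were also set against depth. The r with the log2 of the estimated reads was 0.398 for miR-499-5p (permutation p = 0.202, adjusted p = 0.252) and 0.323 for miR-208b-3p (permutation p = 0.306, adjusted p = 0.306), with a rho of 0.463 and 0.421. Without aged 3 and young 6, the deepest libraries, r was 0.742 for miR-499-5p (permutation p = 0.0261) and 0.584 for miR-208b-3p (permutation p = 0.0710). The relation of miR-499-5p to depth thus passed an unadjusted p of 0.05 over the 10 shallower libraries and not over all 12. A straight line in the log2 of the estimated reads was also taken out of both levels, an alternative chosen after seeing the data. Over the 12 libraries, r between miR-208b-3p and miR-499-5p was then 0.848 (permutation p = 0.00288). The relation to depth differed without the deepest libraries, so a straight line may leave part of it in both levels.

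**Figure D4:**
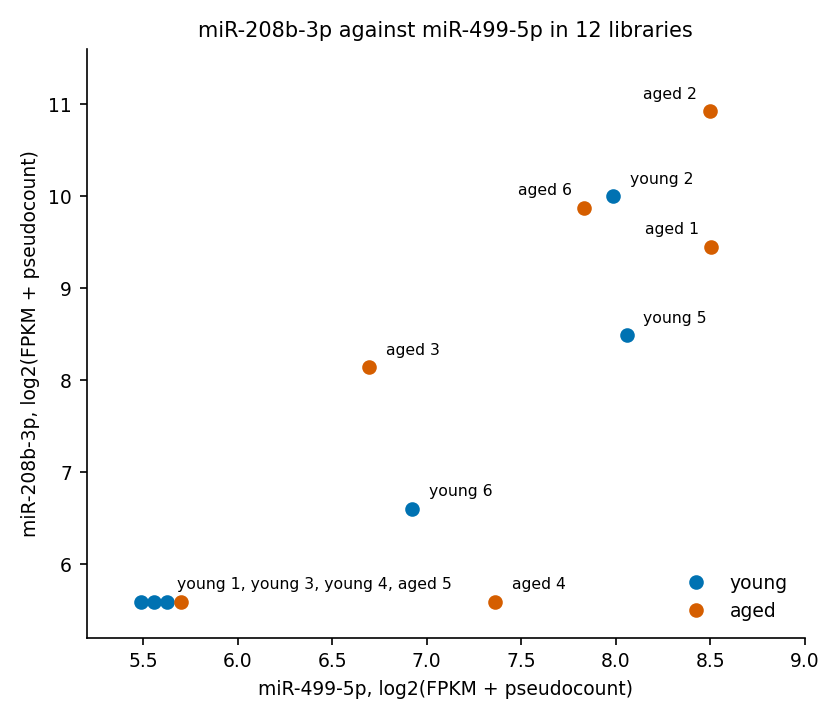
Level of miR-208b-3p against that of miR-499-5p, both as log2(FPKM + 48.2), in the 6 young and 6 aged libraries, one point each. The 4 libraries without a read of either (young 1, 3 and 4 and aged 5) share one position at the lower left and are drawn side by side so that each can be seen, and aged 4 lies apart with miR-499-5p only.

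Other miRNAs were ranked by how closely their levels followed the pair over the 12 libraries, among 211 with a mean of at least 482 FPKM. miR-19b-3p, which is widely expressed, came first for both, with r of 0.864 for miR-499-5p and 0.709 for miR-208b-3p. The r of 0.865 between miR-208b-3p and miR-499-5p was thus hardly above that of miR-499-5p with miR-19b-3p, and was not particular to the pair. For miR-499-5p, miR-19b-3p was followed by miR-27b-5p (0.815), miR-423-3p (0.764), miR-106b-3p (0.731) and miR-7068-3p (0.698). For miR-208b-3p it was followed by miR-107-3p (0.598), miR-142b (0.571), miR-27b-5p (0.569) and let-7c-2-3p (0.555). These values describe the 12 libraries, which share depth between miRNAs, and no muscle miRNA outside the myosin genes was among them. Of the listed miRNAs, only let-7c-2-3p had a library at 0 FPKM. None of the 8 miRNAs was called with age.

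The other muscle miRNAs gave the setting for the pair. Of 15 muscle strands outside myosin genes, 11 were tested, and 1 rose and 0 fell with age, where 2.9% of all tested miRNAs were called. The one that rose was miR-206-3p, a skeletal muscle miRNA known for its induction in regenerating and denervated fibres, at 812 ± 637 FPKM in young and 1981 ± 480 FPKM in aged muscle (SD, n = 6 each), a log2 change of 1.54 with an SE of 0.39 (limma, adjusted p = 0.0296). The change kept its direction in 27 alternatives, from 1.04 to 1.86 on the log2 scale, but the call was lost in 16 of them, with adjusted p of up to 0.198. These included exact permutation (adjusted p = 0.155), depth as a covariate (limma, adjusted p = 0.0636) and leaving out any 1 of young 1, 3 and 5 or aged 2 to 6. The median change of the 11 was 0.12 on the log2 scale, beside 0.07 over all tested miRNAs. The most abundant of them barely moved, with -0.17 for miR-133a-3p (SE 0.15, limma adjusted p = 0.679), 0.12 for miR-486-3p (limma adjusted p = 0.804) and 0.11 for miR-486-5p (limma adjusted p = 0.835). The mean levels of miR-486-3p and miR-486-5p were nearly equal, at 2720595 and 2640941 FPKM. Whether these are separate measurements was not tested. miR-1a-3p differed by 0.17 (SE 0.14, limma adjusted p = 0.651). The levels of miR-206-3p and of the myosin-gene strands were not clearly related over the 12 libraries, with r of 0.459 for miR-208b-3p (permutation p = 0.124, adjusted p = 0.252) and 0.429 for miR-499-5p (permutation p = 0.169, adjusted p = 0.252). Without young 1 and young 3, these fell to 0.206 (permutation p = 0.561) and -0.01.

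Markers of other cell types in the tissue were tested in the same fit. Of 2 endothelial, 3 smooth muscle, 4 fibroblast, 3 red cell, 4 white cell and 2 nerve miRNAs tested, 0 were called in each list, where 2.9% of all tested miRNAs were called. The lowest adjusted p among them was that of the smooth muscle miRNA miR-145a-5p, named after its values were seen, with a log2 difference of -0.43 (limma, adjusted p = 0.0975). The median log2 change was 0.36 for the white cell list, whose summed level ran from 8449 to 19468 FPKM in young and from 11136 to 24904 FPKM in aged muscle, and -0.34 for the red cell list. It was 0.01, 0.17, 0.10 and 0.14 for the endothelial, smooth muscle, fibroblast and nerve lists. The part of these cells in the levels of miR-208b-3p and miR-499-5p was not tested.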

How the data were processed

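Small RNA of 12 gastrocnemius libraries was analysed from the authors' table. The authors trimmed adaptors, mapped reads to mm10 (BWA in the study's methods, TopHat2 in the submitters' processing notes) and computed FPKM for mature miRNAs of miRBase release 20. The deposited values are log2 of FPKM, with 0 for no read. Use of strand and the treatment of reads that map to several places were not given in the sources used here. Some rows had the same fitted values as another. These include miR-136-3p and miR-3071-5p, both called with age and named after their values were seen (log2 change -1.94 in each). A count or share of miRNAs called can thus hold the same reads more than once. Values were returned to the linear scale, with 0 left as 0, and the copies of a mature miRNA in the genome were added up. Reads were recovered from the steps of the low values with RefSeq lengths (22 nucleotides assumed where none was matched; 81.7% of rows matched), and of the 3212 values below 25 reads, 99.3% came within 0.15 of a whole number of reads.

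Aged was compared with young by limma 3.58.1 in R 4.3.3 (lmFit, eBayes with trend, no covariate) on log2(FPKM + 48.2), with a pseudocount of 48.2 equal to the median of each library's lowest nonzero FPKM, two-sided, with Benjamini-Hochberg adjustment over 482 miRNAs at 0.05. Ratios and sums were compared by two-sided exact permutation of the age labels (smallest p 0.00216), and correlations by 100000 permutations or, within an age, all 720 pairings. Intervals are exact Poisson. Same-numbered libraries did not deviate together, so the replicate numbers were not used as pairs. Reads, permutations and figures used Python 3.11.15, NumPy 2.4.6, pandas 2.3.3, SciPy 1.17.1 and matplotlib 3.10.9. The fit was also run on simulated data, with a smaller spread set between libraries than the tested strands had, so that run does not bear on them.

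The members, the lists and the rule for naming miRNAs were chosen with earlier results of these data known. Named miRNAs were the members, their partner strands and seed mates, miR-133a-3p and miR-1a-3p, from the muscle list the called and the 3 most abundant, neighbours in abundance, and the 5 most alike in level to each tested member. Alternatives were other pseudocounts, filters, scalings and tests, zeros kept as log2 values, copies not summed, depth as a covariate, the replicate block and leaving out each library. Leaving out the 3 shallowest or the 2 deepest libraries, using the libraries with a read of both or of either strand, and a partial correlation on depth were chosen after seeing the data. The study's other data were not analysed here.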

Additional observations from a re-analysis of the deposited data

Results flagged for a closer look

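In young muscle, the log2 ratio of miR-208b-3p to miR-499-5p (48.2 FPKM added to both) was 2.01 in young 2, far above the other 5 young libraries, which lay between -0.32 and 0.43. It was set apart by Dixon's test for 6 libraries at the 95% level. The test was run on 12 groups of values and set apart this 1, where chance gives about 0.6. The ratio in young 2 rests on 10 reads of miR-208b-3p and 2 of miR-499-5p, and 3 of the other young libraries had no read of either. Their log2 ratio is 0 only because the same pseudocount was added to both, so the narrow range that young 2 is set against is in part made by the pseudocount.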

How the results depend on the processing

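Neither tested strand was called under any of the 27 alternatives. The change with age was positive in all of them, from 0.53 to 2.35 log2 units for miR-208b-3p (adjusted p 0.348 to 0.810, limma or the alternative test) and from 0.19 to 2.52 for miR-499-5p (adjusted p 0.370 to 0.803). The unadjusted p of miR-208b-3p was under 0.05 in 3 fits, without aged 4, aged 5 or young 2.

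The count over all tested miRNAs moved more. It was 14, but 19 with quantile normalization, 17 with median-of-ratios scaling, 8 with depth as a covariate, 7 with no filter, 6 with a pseudocount of 1 FPKM, 6 with zeros kept as log2 values, 8 without the 3 shallowest libraries, and 6 to 15 when 1 library was left out, the lowest without aged 2, aged 3, aged 4 or young 3. The cause was not tested. It was 0 with exact permutation per miRNA, where 21 miRNAs at the smallest possible p would be needed for a call and 13 were at it (66 had an unadjusted p under 0.05), so that count says little. The log2 ratio of miR-208b-3p to miR-499-5p turned to -0.17 (exact permutation p = 0.981) with a pseudocount of 1 FPKM. Their correlation missed the threshold within aged libraries (0.782, exact permutation p = 0.0944), among libraries with a read of both (0.766, exact permutation p = 0.0722) and without the 4 libraries with a read of neither (0.707, exact permutation p = 0.0643), all with fewer libraries, and ran from 0.839 to 0.942 with 1 library left out. With the replicate number as a block, 14 miRNAs were called and no call on the members changed (limma adjusted p 0.458 for miR-208b-3p, 0.654 for miR-499-5p). Same-numbered libraries correlated at -0.09 to 0.09, and none correlated best with its own number. The ratio of miR-499-5p to miR-499-3p was not run, since the 3p strand had no read. Depth limits the members: in the shallow libraries without a read, levels near the highest measured for miR-499-5p could have gone undetected.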
